A study of Homo sapiens with 4 samples.

Results

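Cathepsins are the proteases of the lysosome, the acidic compartment in which cells break down proteins, and legumain is an endopeptidase of the same compartment. The 10 genes described here, CTSA, CTSB, CTSC, CTSD, CTSH, CTSK, CTSS, CTSW, CTSZ and LGMN, were taken by gene symbol from 21865 symbols. Each symbol occurred a single time in the tables, and 9 of the 10 reached 1 RPKM in at least 1 library, as did 12976 symbols in all, which are called measured. RPKM is a transcript level per kilobase of gene length scaled to the library total. RNA was sequenced from 4 cultured human acute myeloid leukemia lines (HL60, KG1a, MonoMac-1 and THP-1), grown in the same kind of serum-containing medium, with 1 library per line. HL60 came from a promyelocytic or myeloblastic leukemia, KG1a is a primitive CD34-expressing line, and both THP-1 and MonoMac-1 derive from monocytic leukemia. That the latter pair carries the MLL-AF9 gene fusion and the former pair lacks it is general knowledge of the lines, and the labels do not say so. The THP-1 sample bears the suffix "tr" in its title, which no label explains. The libraries cannot show the spread between cultures of a line, and each line stands for a single leukemia.

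Most cathepsins are cysteine proteases related to papain, made as inactive precursors that are cut to the active form in the acidic compartment. CTSD instead uses aspartic acid residues, and CTSA is a serine carboxypeptidase. Monocytes and macrophages are rich in these enzymes, which degrade engulfed material and trim antigens and the invariant chain for display on HLA class II. Some members have narrower roles: CTSC activates the serine proteases of neutrophil and lymphocyte granules, CTSK degrades bone collagen in osteoclasts, and CTSW is known from natural killer cells and cytotoxic T cells. Cystatins are small proteins that block the cysteine cathepsins.

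Sequence on genes amounted to 6.04 gigabases in the shallowest library, THP-1, and 13.6 in the deepest, MonoMac-1. Of the 9 line markers, MPO, the peroxidase of promyelocytes, was highest in HL60 at 4610 RPKM, and stood at 95.2 in MonoMac-1. CD34 was highest in KG1a at 494 RPKM. IRF8, a monocyte transcription factor, stood at 231 RPKM for THP-1 and 163 for MonoMac-1. CD14, a surface marker of mature monocytes, was low at 1.28 RPKM for THP-1 and 4.13 for MonoMac-1. All 7 stromal and epithelial markers examined stayed under 1 RPKM, with summed levels of 0.142 to 0.500 RPKM. Transcripts abundant in KG1a were also found in HL60, most of them at a low share. Over 21 genes with at least 50 RPKM in KG1a, under 1% of that level in both monocytic lines and under 10% of it in HL60, the HL60 value had a median of 2.71% of the KG1a value (quartiles 2.61% and 3.18%, range 2.40% to 8.03%). The limit of 10% restricts the values from above: without it there were 24 genes, with a median of 2.75% and a range of 2.40% to 113%. The source of that share was not tested. Of the members, CTSW came nearest to that share, with an HL60 level of 2.87% of its KG1a level. The next lowest percentages were 22.2% for CTSB and 30.6% for CTSC. A share of 2.71% would be 4.14 of the 105 RPKM of CTSD in HL60. For CTSC it would be 3.03 of 34.2 RPKM and for CTSB 0.830 of 6.80 RPKM.

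**Figure D1:**
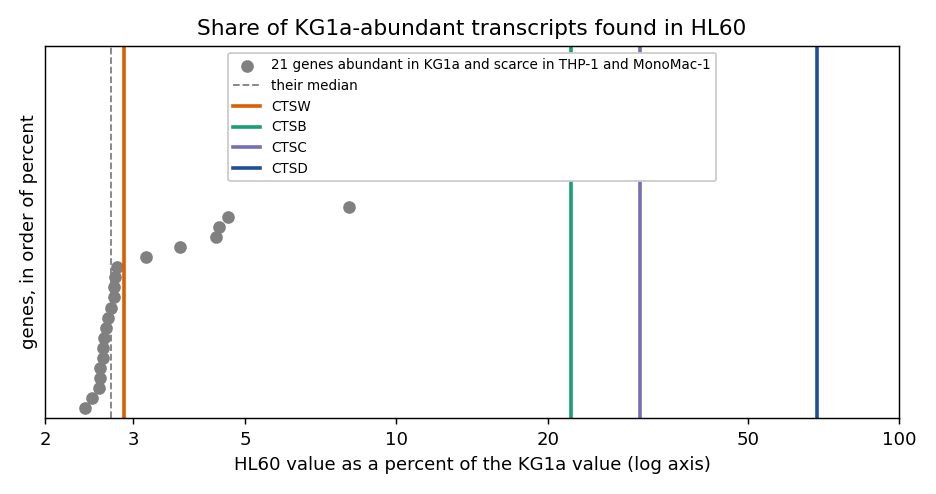
Each grey point is 1 of 21 genes abundant in KG1a, scarce in both monocytic lines and under 10% of the KG1a level in HL60, placed by its HL60 value as a percent of its KG1a value (log axis), with the dashed line at their median of 2.71%. Coloured lines mark 4 cathepsins: CTSW, at 2.87%, lies among the grey points, whereas CTSB (22.2%), CTSC (30.6%) and CTSD (68.6%) lie far to their right.

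Among the 10 genes, the highest level was that of CTSD in HL60, CTSW in KG1a and CTSZ in both monocytic lines. CTSG, a cathepsin outside the 10, was higher still in HL60, THP-1 and MonoMac-1 (values below). CTSD held 41.6% of the summed RPKM of the 10 genes in HL60, CTSW 45.6% in KG1a and CTSZ 29.0% in THP-1. In MonoMac-1, CTSZ (28.4%) and CTSD (28.3%) were level within their counting intervals. The sum of the 10 genes was 251 RPKM in HL60 and 594 in KG1a, against 445 for THP-1 and 973 for MonoMac-1, which was 0.0610%, 0.174%, 0.117% and 0.248% of all RPKM in the respective library. MonoMac-1 thus had the largest sum and HL60 the smallest of these 4 libraries. MonoMac-1 had 8 members at 20 RPKM or more, THP-1 had 7, KG1a 5 and HL60 4. Cysteine cathepsins made up 34.1% of the sum in HL60 and 70.1% in KG1a, against 58.7% for THP-1 and 59.1% for MonoMac-1. In KG1a the 6 cysteine cathepsins other than CTSW made up 24.5% of the sum, so the high share of KG1a rested on that gene. As these are bulk libraries, fewer expressing cells and less RNA per cell cannot be told apart.

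**Figure D2:**
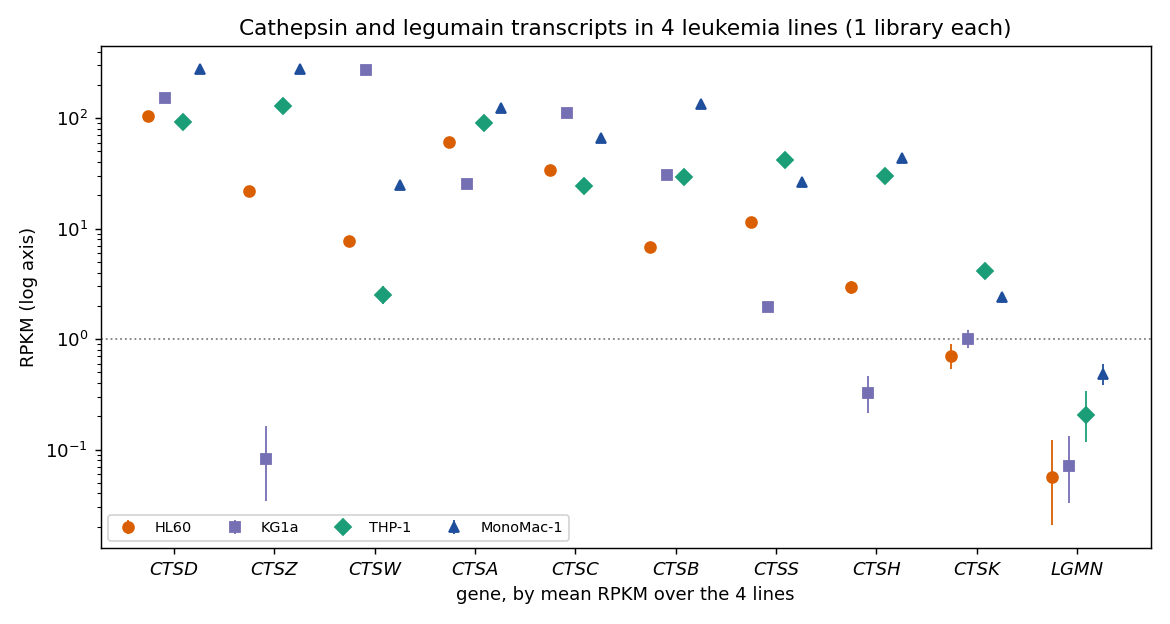
Level of each gene in each of the 4 libraries, in RPKM on a log axis, with bars for the 95% counting interval (hidden by the symbol where narrow) and a dotted line at 1 RPKM. The lines lie close together for CTSD and CTSA, KG1a lies far below the others for CTSZ and far above them for CTSW, and all 4 values of LGMN fall under the dotted line.

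**Figure D3:**
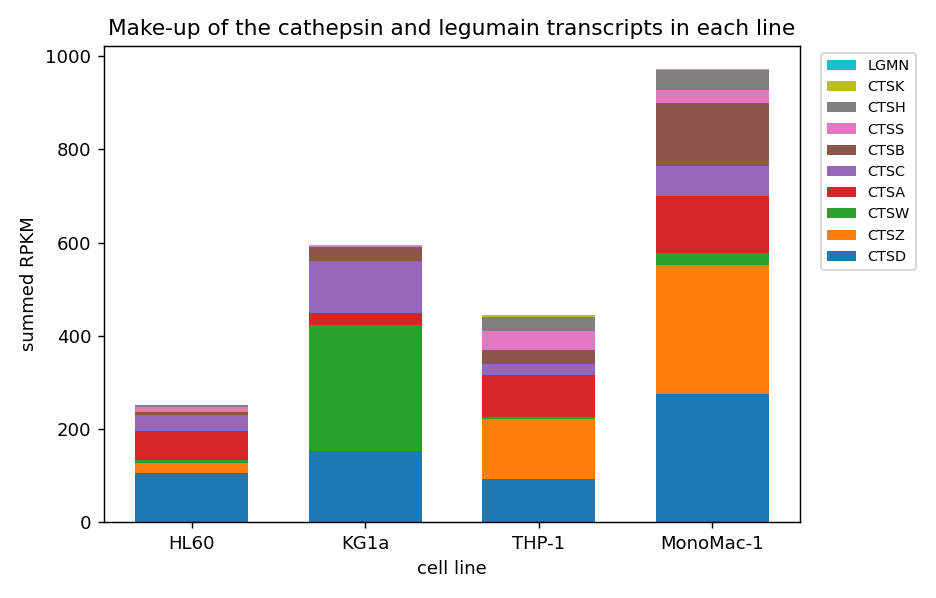
Stacked RPKM of the 10 genes in each library, on a linear axis from 0. The stack reaches 973 RPKM in MonoMac-1 and 251 in HL60, CTSW takes up 45.6% of the KG1a stack, and CTSZ is not visible there.

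CTSD, the aspartic protease that is among the most abundant lysosomal enzymes of many tissues, was high in every line (chromosome 11, 1773985 to 1785222, build hg19, starts as listed in the deposited tables). It stood at 105 RPKM in HL60 and 153 in KG1a, against 93.1 for THP-1 and 275 for MonoMac-1. Its level exceeded that of 95.1% to 98.8% of measured genes in the 4 libraries. The highest and lowest values were 2.96-fold apart, the smallest ratio among the 10 genes, and the monocytic lines were the highest and the lowest of the 4. The listed interval of MOB2 overlaps that of CTSD, so reads could be shared, but MOB2 stood at only 6.46 to 10.6 RPKM.

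CTSA, also called protective protein because it holds the sialidase NEU1 and the galactosidase GLB1 in a stable complex, was expressed in every line (chromosome 20, 44519902 to 44527396). It stood at 60.8 RPKM in HL60 and 25.1 in KG1a, against 90.5 for THP-1 and 122 for MonoMac-1. Both monocytic lines were above HL60, and KG1a was the lowest. GLB1 stood at 30.2 RPKM in HL60 and 26.5 in KG1a, against 41.8 for THP-1 and 92.1 for MonoMac-1, and NEU1 at 26.4, 26.2, 38.2 and 74.2. Both partners, too, were highest in MonoMac-1, and for NEU1 the levels of HL60 and KG1a were nearly the same. CTSA was 2.31 times as abundant as NEU1 in HL60 and 2.37 times in THP-1, but the ratio was 1.65 in MonoMac-1 and 0.959 in KG1a.

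Promoter sequence from RefSeq (build GRCh38.p14) was matched for 5 members, CTSA, CTSC, CTSD, CTSH and CTSZ. The last 100 bases before the annotated start are shown because these genes include that with the smallest ratio between lines (CTSD) and that with the largest (CTSZ). Sequences run 5′ to 3′ along the gene. Capitals mark CACGTG, the E-box core within the site bound by the lysosomal regulators TFEB and TFE3, and GAGGAAG, a core of sites for the myeloid factor PU.1, on either strand.
CTSA (chr20:45891235-45891334, plus strand): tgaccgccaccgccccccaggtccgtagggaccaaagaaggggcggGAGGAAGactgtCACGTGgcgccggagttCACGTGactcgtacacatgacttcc
CTSD (chr11:1763928-1764027, minus strand): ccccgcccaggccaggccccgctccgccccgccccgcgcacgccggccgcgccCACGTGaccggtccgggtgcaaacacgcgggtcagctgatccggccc
CTSZ (chr20:59007255-59007354, minus strand): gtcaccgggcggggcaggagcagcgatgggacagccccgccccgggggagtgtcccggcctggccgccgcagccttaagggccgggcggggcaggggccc
CTSH (chr15:78945047-78945146, minus strand): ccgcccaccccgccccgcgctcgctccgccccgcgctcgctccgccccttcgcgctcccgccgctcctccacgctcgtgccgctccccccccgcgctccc
CTSC (chr11:88337737-88337836, minus strand): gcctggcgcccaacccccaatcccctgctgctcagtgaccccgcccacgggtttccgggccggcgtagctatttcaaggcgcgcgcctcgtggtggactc

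Within 250 bases before the start, CACGTG occurred in 2 of the 5 windows, those of CTSA and CTSD, and in 6.34% of all 35116 windows of the table. In CTSA it began 42 and 25 bases before the start and in CTSD 47 bases before it. The longer form TCACGTG, which contains CACGTG, was found in the same 2 windows and in 3.31% of all windows. GAGGAAG occurred in the windows of CTSA and CTSH (11.2% of all windows); the copy in CTSH, on the opposite strand, began 208 bases before the start and lies outside the printed stretch. GAAANNGAA, a core of interferon response elements, occurred in 0 of the 5 windows and in 6.88% of all. The share of G and C ran from 58.4% in CTSC, near the median of 58% over the table, to 81.2% in CTSZ. A match shows that the letters are present and not that a factor binds there.

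CTSZ, a carboxypeptidase of monocytes and macrophages that is also secreted, spanned the widest range (chromosome 20, 57570242 to 57582309). It stood at 22.0 RPKM in HL60 and 0.0815 in KG1a, against 129 for THP-1 and 277 for MonoMac-1. KG1a was lowest by far, at 7.46 fragment equivalents (95% counting interval 0.0339 to 0.164 RPKM), while both monocytic lines lay above HL60. THP-1 was 5.87-fold and MonoMac-1 12.6-fold above HL60, and HL60 was 270-fold above KG1a on the RPKM scale. In MonoMac-1 the level exceeded that of 98.8% of measured genes and in KG1a that of 8.05%.

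CTSH, an aminopeptidase that matures surfactant protein in the lung and trims peptides in myeloid cells, had the clearest step between the pairs (chromosome 15, 79214092 to 79237420). It stood at 2.95 RPKM in HL60 and 0.322 in KG1a, against 30.2 for THP-1 and 43.6 for MonoMac-1. No overlap was seen between the pairs, and the lower of the monocytic lines was 10.3-fold above HL60. MonoMac-1 was 1.44-fold above THP-1, and HL60 was 9.15-fold above KG1a.

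CTSS, the endopeptidase that cuts the invariant chain in antigen-presenting cells, was highest in THP-1 (chromosome 1, 150702672 to 150738433). It stood at 11.4 RPKM in HL60 and 1.93 in KG1a, against 41.4 for THP-1 and 26.6 for MonoMac-1. There was no overlap between the pairs, and the lower monocytic value was 2.33-fold above HL60. The partners of CTSS in class II loading followed another order. CD74, the invariant chain, stood at 88.8 RPKM in HL60 and 1.67 in KG1a, against 79.8 for THP-1 and 608 for MonoMac-1, and HLA-DRA at 1.28, 0.494, 4.39 and 430. MonoMac-1 was thus highest in both, whereas its CTSS level was 0.643 of that in THP-1. IFI30, the thiol reductase of this compartment, stood at 57.9, 1.85, 10.6 and 107 RPKM and HLA-DMA, a peptide exchanger, at 4.50, 0.515, 3.96 and 38.6 in the same order of lines. All 6 measured genes of the class II loading list were at least 4-fold higher in MonoMac-1 than in THP-1, as were 2.27% of all measured genes.

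CTSB, an abundant carboxydipeptidase and endopeptidase, set MonoMac-1 apart (chromosome 8, 11700034 to 11725646). It stood at 6.80 RPKM in HL60 and 30.6 in KG1a, against 29.3 for THP-1 and 135 for MonoMac-1. MonoMac-1 was 4.41-fold above the next line, HL60 was the lowest, and KG1a and THP-1 had overlapping counting intervals (29.9 to 31.3 and 28.4 to 30.2 RPKM).

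CTSK, the collagenase of osteoclasts, was scarce throughout (chromosome 1, 150768684 to 150780917). It stood at 0.699 RPKM in HL60 and 1.008 in KG1a, against 4.10 for THP-1 and 2.39 for MonoMac-1. Both monocytic lines were above the other lines, whose counting intervals overlapped. Other osteoclast genes were mostly low: of the 11 chosen, 9 had an entry and 4 were measured. ACP5, the acid phosphatase of osteoclasts, reached 1.08 RPKM at most. OSCAR, an osteoclast-associated receptor, stood at 2.16 RPKM in HL60 and 0.367 in KG1a, against 1.13 for THP-1 and 1.24 for MonoMac-1, and CALCR, the calcitonin receptor, was listed at 0 in all 4 libraries. NFATC1, a transcription factor of osteoclasts and lymphocytes, ranged from 2.30 to 5.75 RPKM, and ITGB3, an integrin chain shared with platelets, reached 13.5 RPKM in KG1a alone among these libraries and 0.354 or less elsewhere.

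CTSC, the dipeptidyl peptidase that activates granule serine proteases, was most abundant where those proteases were scarce (chromosome 11, 88026760 to 88070941). It stood at 34.2 RPKM in HL60 and 112 in KG1a, against 24.5 for THP-1 and 66.1 for MonoMac-1. Values of the pairs overlapped, with a monocytic line as the lowest and another as the second highest. Its substrate ELANE, neutrophil elastase, stood at 76.6 RPKM in HL60 and 0.0355 in KG1a, against 1042 for THP-1 and 1313 for MonoMac-1. PRTN3, proteinase 3, stood at 615, 0.237, 1624 and 1558 RPKM, and CTSG, cathepsin G, at 119.6, 19.9, 1789 and 2410. Per unit of PRTN3, CTSC amounted to 0.0555 in HL60 and 472 in KG1a, against 0.0151 for THP-1 and 0.0424 for MonoMac-1. Granzyme genes, which encode the CTSC substrates of lymphocytes, were under 1 RPKM in every library, with GZMH in MonoMac-1 the highest at 0.995.

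CTSW, the member known from cytotoxic lymphocytes, was highest in KG1a (chromosome 11, 65647284 to 65651210). It stood at 7.78 RPKM in HL60 and 271 in KG1a, against 2.51 for THP-1 and 24.8 for MonoMac-1. KG1a was 10.9-fold above MonoMac-1 and 108-fold above THP-1, and it placed CTSW above 99% of measured genes. When 2.71% of the KG1a value was taken off HL60, 0.440 RPKM was left there, which put HL60 below THP-1. The level in MonoMac-1 was 9.86-fold that in THP-1. Other genes of cytotoxic lymphocytes were present in part. PRF1, which encodes perforin, stood at 0.841 RPKM in HL60 and 26.9 in KG1a, against 0.0227 for THP-1 and 0.0647 for MonoMac-1. CD7, a surface antigen of T and natural killer cells, stood at 0.562, 21.5, 0 and 0.0784 RPKM, and CD3E, a chain of the T cell receptor complex, at 0.926, 14.1, 0.0190 and 0.0210. NKG7, a granule membrane protein, was high in MonoMac-1 as well as in KG1a, at 18.0, 122.5, 15.9 and 159 RPKM. The share of 2.71% was not taken off the HL60 values printed for PRF1, CD7, CD3E and NKG7. Of the 12 genes on this list 4 were measured, and 3 of them (PRF1, CD7 and CD3E) were at least 4-fold higher in KG1a than in every other line, as were 2.82% of all measured genes. The granzymes (above) and GNLY, which encodes granulysin, were not measured, and GNLY reached 0.210 RPKM at most.

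LGMN, legumain, which cuts after asparagine and processes other cathepsins, was barely detected (chromosome 14, 93170152 to 93215047). It stood at 0.0560 RPKM in HL60 and 0.0706 in KG1a, against 0.205 for THP-1 and 0.479 for MonoMac-1. These values rested on 6, 9.38, 15.5 and 81.9 fragment equivalents, and the counting intervals of HL60, KG1a and THP-1 overlapped between neighbours. MonoMac-1 was the highest, yet CTSD was 575 times as abundant there. LGMN was not measured and is not among the 9 genes counted in the comparisons that follow.

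The monocytic pair was set against HL60 and KG1a, since the series is concerned with MLL-AF9 leukemia. Fusion, monocytic lineage and the single lines cannot be told apart in this comparison. Of the 9 measured members 5 (CTSA, CTSH, CTSK, CTSS and CTSZ) were higher in both monocytic lines than in both other lines, where 22.1% of all measured genes were. The number lower in both was 0, where 19.6% of all genes were. By a margin of at least 4-fold on the RPKM + 1 scale, 2 members were higher, CTSH and CTSZ (1.39% of all genes), and 0 were lower (0.331% of all genes). The median difference of the 9 genes was 1.40 on the log2(RPKM + 1) scale, and that of all measured genes was 0.02. Without HL60, CTSS also met the 4-fold rule on the higher side (3 members) and CTSW on the lower side (1 member). Without THP-1, CTSB joined on the higher side (3 members). The shares of all genes with a line left out were not computed, so nothing is concluded from the added members.

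None of the 9 differences passed the test once adjusted over all genes, which does not show that they lie within the spread between lines. With limma, a linear model with a moderated variance, fitted to 2 lines against 2, 0 members and 0% of all genes passed an adjusted p of 0.05. At an unadjusted p under 0.05 there were 4 members, all higher in the monocytic pair (CTSA, CTSH, CTSS and CTSZ), and 0 lower, against 5.91% and 2.64% of all genes. The log2 difference was 4.03 ± 0.65 (SE, limma adjusted p = 0.257) for CTSH and 5.25 ± 1.47 (limma adjusted p = 0.450) for CTSZ. CTSS differed by 2.50 ± 0.77 (limma adjusted p = 0.498), CTSB by 2.03 ± 0.99 (limma adjusted p = 0.665) and CTSA by 1.40 ± 0.52 (limma adjusted p = 0.569). CTSK differed by 1.17 ± 0.50 and CTSD by 0.34 ± 0.62, and the estimates for CTSC (-0.61 ± 0.76) and CTSW (-2.36 ± 1.84) were on the lower side. With the KG1a share taken off HL60, the estimate for CTSW was -1.06. The adjusted p of CTSK, CTSD, CTSC and CTSW was 0.620 or more with limma. An exact permutation of 2 lines against 2 could not give a p below 0.333.

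**Figure D4:**
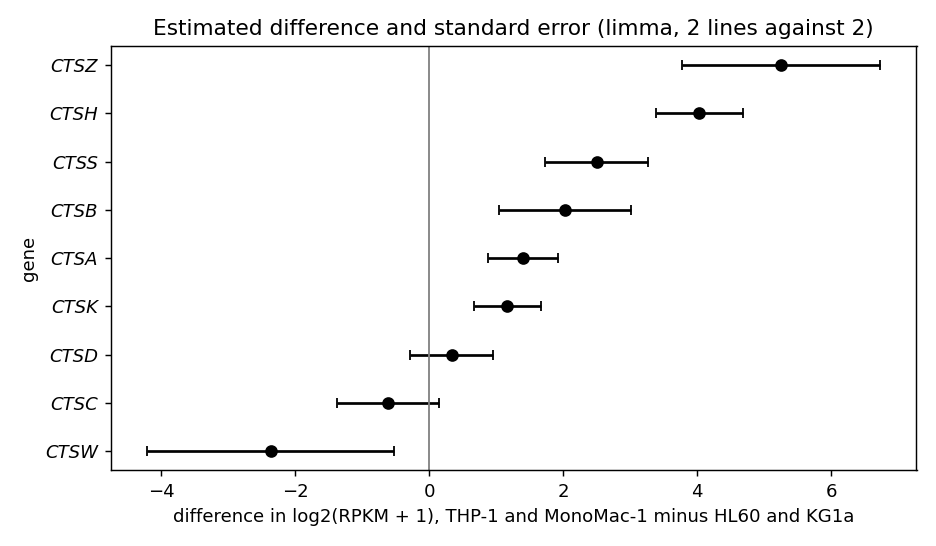
Difference in log2(RPKM + 1) between THP-1 with MonoMac-1 and HL60 with KG1a for the 9 measured genes, as the limma estimate (point) and its standard error (bar). CTSZ (5.25) and CTSH (4.03) lie farthest to the right, and CTSC (-0.61) and CTSW (-2.36) lie left of 0.

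Between the monocytic lines, which were 1 library each and so allowed no test, MonoMac-1 was higher in 7 of 9 members (53.6% of all measured genes). CTSB and CTSW were at least 4-fold higher in MonoMac-1 (2 of 9, against 2.27% of all genes) and 0 were so in THP-1 (2.03%). CTSS and CTSK were the members higher in THP-1, by 1.56-fold and 1.72-fold in RPKM. The median difference, THP-1 minus MonoMac-1, was -1.09 on the log2 scale for the members and -0.04 for all genes. Between HL60 and KG1a, 2 members were at least 4-fold higher in HL60 (CTSS and CTSZ, against 4.1% of all genes) and 2 in KG1a (CTSB and CTSW, against 6.2%). CTSB was at the edge of that rule, with a log2 difference of -2.02. KG1a was the lowest line in 4 of 9 members (CTSA, CTSH, CTSS and CTSZ), a share to be read beside 29.7% of all genes, and by at least 4-fold in CTSS and CTSZ (2 members, 2.13% of all genes). It was the highest line in CTSC and CTSW (2 members, 31% of all genes), and by at least 4-fold in CTSW (1 member, 2.82% of all genes).

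Cathepsins outside the 10 genes differed in the same comparison by symbol. Of 5 measured, 4 were higher in both monocytic lines by any margin and 0 lower (22.1% and 19.6% of all genes). The 4-fold rule was met by 2 of them (1.39% of all genes), CTSG (above) and CTSL2, the gene of cathepsin V. CTSL2 stood at 0.0679 RPKM in HL60 and 0.0110 in KG1a, against 10.3 for THP-1 and 11.8 for MonoMac-1 (log2 difference 3.54 ± 0.45, limma adjusted p = 0.172). CTSL1, the gene of cathepsin L, stood at 12.1, 0.0259, 34.7 and 21.3 RPKM in that order of lines and so, like CTSS, was highest in THP-1 and lowest in KG1a. CTSO stood at 0.0618, 1.52, 7.21 and 7.60 RPKM, and CTSF was highest in KG1a, at 0.729, 18.7, 1.72 and 3.998 RPKM.

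The summed inhibitors and the summed proteases had different orders over the lines. The cystatins CSTA, CSTB, CST3 and CST7 summed to 455 RPKM in HL60 and 102 in KG1a, against 528 for THP-1 and 607 for MonoMac-1, and the 7 cysteine cathepsins to 85.8, 416, 261 and 575. The cystatin sum was thus 5.30 times the cathepsin sum in HL60, 2.02 times in THP-1, 1.06 times in MonoMac-1 and 0.245 times in KG1a. These 7 are the cysteine cathepsins among the members, so CTSL1, CTSL2, CTSO and CTSF were left out of the sum. The value for MonoMac-1 therefore lies too near 1 to say which sum was larger there. Without CTSW the value for KG1a was 0.699. CST3, the secreted cystatin C, stood at 12.5 RPKM in HL60 and 1.13 in KG1a, against 322 for THP-1 and 190.2 for MonoMac-1 and met the 4-fold rule. CSTA, cystatin A of epithelium and myeloid cells, stood at 70.6, 0.0866, 101 and 127 RPKM, so that KG1a was the exception. CSTB, the cytosolic cystatin B, was nearly level at 63.7, 88.9, 101 and 94.3. CST7, cystatin F, which is taken up into granules and acts on CTSC, stood at 308, 11.7, 3.89 and 195.7 RPKM, lowest in THP-1. SERPINB1, a cytosolic inhibitor of the granule proteases, stood at 37.9, 77.0, 31.0 and 173 RPKM. Of the 6 measured inhibitors 3 were higher in both monocytic lines (22.1% of all genes), 1 was lower (SERPINB6, an intracellular serpin, against 19.6% of all genes) and 1 met the 4-fold rule (1.39% of all genes).

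**Figure D5:**
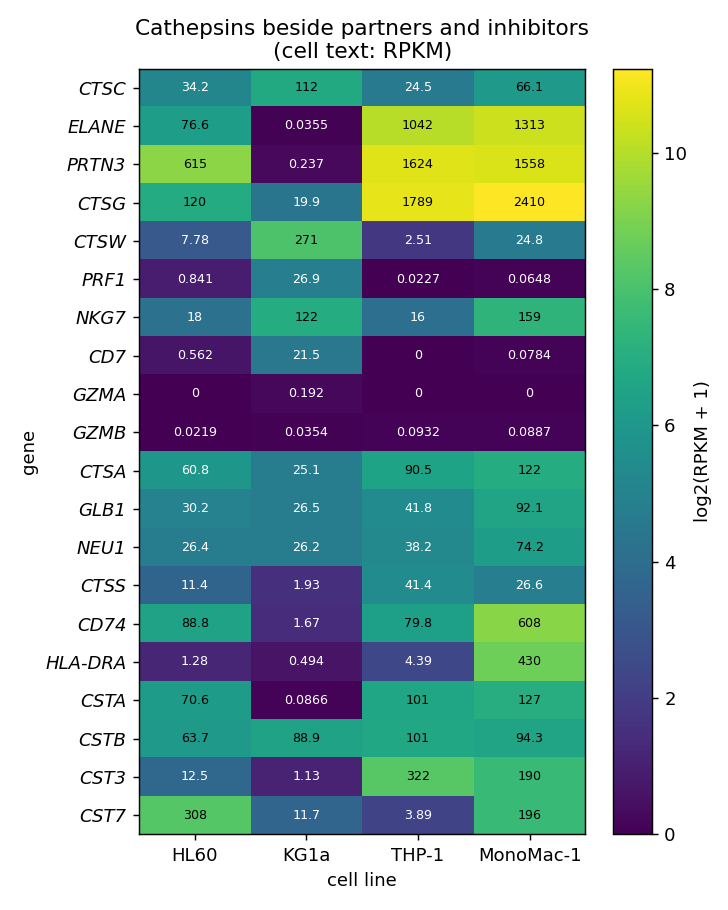
Levels of CTSC, CTSW, CTSA and CTSS in the 4 lines, coloured by log2(RPKM + 1) with the RPKM written in each cell. Beside them are granule proteases, genes of cytotoxic lymphocytes, the partners of CTSA, class II loading genes and the cystatins. KG1a combines the highest CTSC (112 RPKM) with ELANE at 0.0355 and the highest CTSW (271) with GZMA and GZMB under 1, and CST3 is brightest in THP-1 (322).

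Other lysosomal genes were examined in the same comparison. The list of lysosomal hydrolases, which also held PSAP and GRN, had 30 measured genes. Of these 18 were higher in both monocytic lines and 0 lower (22.1% and 19.6% of all genes). By the 4-fold rule 0 were higher and 0 lower (1.39% and 0.331% of all genes). Their median difference was 1.07 in log2(RPKM + 1). PSAP, the precursor of the saposins, stood at 110.1 RPKM in HL60 and 151 in KG1a, against 113 for THP-1 and 295 for MonoMac-1. GRN, the progranulin gene, stood at 61.4, 71.3, 189.7 and 193 RPKM, and DPP7, a lysosomal dipeptidase, at 89.9, 67.0, 194 and 93.4. PPT1, a thioesterase, stood at 90.3, 97.8, 2289 and 126 RPKM, so that THP-1 alone among the 4 was high. Of 11 measured lysosomal membrane genes 4 were higher in both monocytic lines and 0 lower (22.1% and 19.6% of all genes, median difference 0.66). CD63, a tetraspanin of late endosomes, stood at 80.0, 63.0, 296 and 331 RPKM, and LAMP1 at 101, 74.2, 95.1 and 199.8.

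Of the 16 subunits and partners of the V-ATPase, the proton pump that acidifies the lysosome, 9 were higher and 1 was lower in both monocytic lines (median difference 0.64), and the shares over all genes, here and for the next lists, were 22.1% and 19.6%. ATP6V0B, its most abundant subunit here, stood at 152 RPKM in HL60 and 41.4 in KG1a, against 184 for THP-1 and 198 for MonoMac-1. Among 10 genes of the mannose 6-phosphate route that delivers the enzymes, 4 were higher and 1 was lower (median difference 0.40). The receptor IGF2R stood at 13.5, 7.17, 59.4 and 37.4 RPKM and the receptor M6PR at 152, 104, 79.1 and 126, so these receptors differed in order. Of the 4 regulators of lysosomal genes in the MiT/TFE family 3 were higher in both monocytic lines and 0 lower. TFEB stood at 1.26 RPKM in HL60 and 0.255 in KG1a, against 7.21 for THP-1 and 4.55 for MonoMac-1, TFE3 at 9.50, 17.2, 9.25 and 21.0, MITF at 0.520, 0, 0.642 and 6.45, and TFEC at 8.01, 12.0, 14.9 and 13.9. With limma, 0 genes of these lists passed an adjusted p of 0.05, and at an unadjusted p under 0.05 there were 11 of 30 hydrolases, 3 of 11 membrane genes, 2 of 16 pump genes, 2 of 10 sorting genes and 1 of 4 regulators, all higher, against 5.91% higher and 2.64% lower of all genes.

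The genes whose profile over the 4 lines lay nearest to each member were found by the distance between log2(RPKM + 1) values, each centred on its mean over the 4 lines. For CTSH the nearest was CEBPD, a myeloid transcription factor, at 3.69 RPKM in HL60 and 0.127 in KG1a, against 35.2 for THP-1 and 45.5 for MonoMac-1 (distance 0.38), followed by TLR2 (0.42) and ABP1 (0.59). For CTSZ the nearest was APOC2, an apolipoprotein gene, at 50.8, 0.0529, 205 and 371 RPKM (distance 0.87), then LPPR3 (1.05) and CD81 (1.12). For CTSS they were KBTBD11, APBA2 and QSOX1 (distances 0.24 to 0.25). For CTSA they were RGS12, CHST14 and GLA, the lysosomal alpha-galactosidase, which stood at 27.5, 10.4, 39.5 and 60.6 RPKM (distance 0.15). For CTSW they were CLEC2B, TSPAN13 and C19orf77 (distances 0.94 to 0.97). CTSC lay nearest to CD82 (0.20), then RIMKLB (0.23) and LOC147727 (0.24), and CTSB to CECR1 (0.47), H2AFJ (0.62) and RNF130 (0.71). CTSD lay nearest to RFESD (0.08), FKBP10 (0.15) and TMX4 (0.15), and CTSK to PPARD (0.06), A2LD1 (0.11) and SPATA20 (0.11). Within the family the closest pair was CTSC and CTSD, at a distance of 1.25, so no 2 members had profiles as alike as each had with its nearest gene. With 4 points and 12976 genes, near profiles are to be had for most genes.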

How the data were processed

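TRIzol RNA went into Illumina libraries, per the labels' protocols. CASAVA 1.8.2 and hg19 are named in the submitters' processing notes. Aligner, annotation, strand handling and filters: not given in the sources used here. Each of 4 deposited tables, 1 per line, lists 21893 entries with 2 values. These are the RPKM that the authors computed and a coverage signal in whole numbers, deposited with no unit and read here as sequenced bases on the gene. Neither is a read count, so no count model was used. Counting intervals (95%, Poisson) took 200 bases as 1 fragment equivalent and cover counting error alone.

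Levels were compared as log2(RPKM + 1), a pseudocount of 1 that understates the change of low genes, over symbols at 1 RPKM or more in some line. The test was limma 3.58.1 in R 4.3.3 (eBayes with trend, two-sided, Benjamini-Hochberg over 12976 symbols, 2 residual degrees of freedom). The fit was also run on simulated data with less spread between lines than here and larger shifts than any member estimate. That run checks the code and cannot show how the test performs on these data. The limma p-values weigh a difference against the spread between lines. The 4-fold rule asks for a gap of 2 on this scale between the lowest of one side and the highest of the other. From each list except the line markers the text names the genes meeting that rule and up to 4 others of high mean level, and for each member the 3 nearest profiles. Of the 9 line markers only MPO, CD34, IRF8 and CD14 are described. The levels of LYZ, CD33, CSF1R, ITGAM and PTPRC are not given, although LYZ meets the 4-fold rule on the higher side. CALCR, GNLY, GZMH and SERPINB6 fall outside these choices and were named after their values were seen. Members and lists were chosen with earlier results of these data known. Alternatives were other pseudocounts, scalings and filters, removal of the KG1a share from HL60, and leaving out each line. Sequences are from RefSeq promoter tables (GRCh38.p14), and no coordinate was moved between builds.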

Additional observations from a re-analysis of the deposited data

How the results depend on the processing

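Under pseudocounts of 0.1 and 0.01, median-of-ratios scaling, quantile normalization, removal of the KG1a share, no filter and a filter of 5 RPKM, the 9 member differences kept their direction and 0 passed limma's adjusted threshold of 0.05 (CTSK drops out at 5 RPKM). Over all genes, 11 of 9990 passed that threshold under the filter of 5 RPKM and 0 under the other settings named. Leaving out 1 line at a time turned 3 of the 9 member differences. CTSC ran from -1.45 (without HL60) to 0.23 (without KG1a) and was 0.09 without THP-1, CTSD ran from -0.44 (without MonoMac-1) to 1.12 (without THP-1) and CTSW from -4.84 (without HL60) to 0.11 (without KG1a), on the log2 scale, and the cause was not tested. Without a turn, CTSA ran from 0.78 to 2.02, CTSB from 0.95 to 3.11, CTSS from 1.46 to 3.54 and CTSZ from 3.05 to 7.46, each lowest without KG1a except CTSB (without MonoMac-1), and each highest without HL60 except CTSB (without THP-1). Taking the KG1a share off HL60 brought CTSW from -2.36 to -1.06. With a line left out, an arm of the comparison holds 1 library, which is assumed to vary like the others. Leaving out each line gave 0 to 1 members 4-fold lower in both monocytic lines and 0 to 3 lower by any margin (CTSC, CTSD and CTSW without MonoMac-1, CTSC and CTSW without HL60). The counts of members higher in both ran from 2 to 3 by 4-fold and from 5 to 7 by any margin. The shares of all genes with a line left out were not computed. An arm of 1 library makes a gap between the arms easier to reach for any gene, so these counts cannot be set beside the shares given above. Members 4-fold apart between HL60 and KG1a were 3 (CTSB lost) under both scalings and 5 (CTSH added) under both smaller pseudocounts. No paired analysis was possible because each line has 1 library. Depth limits LGMN in all lines, and CTSZ and CTSH in KG1a, which rest on few fragments.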
